A study of Mus musculus with 4 samples.

Results

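Fc gamma receptors, beta-2 integrins and the proteins that carry their signals are described here by the mRNA courses of 10 genes: the receptors Fcgr1, Fcgr2b, Fcgr3 and Fcgr4, the adaptors Fcer1g and Tyrobp, the kinase Syk, and the integrin subunits Itgam, Itgal and Itgb2. They were taken by name from a table of 41324 genes, all 10 were found, and 9 passed the abundance filter (a mean of at least 1 CPM over the libraries, CPM being counts scaled to library size) that left 10837 genes for testing. Fcgr4 did not pass it. The RNA was cytoplasmic, as the labels name it, and came from RAW264.7 cells, a macrophage-like line grown from a mouse tumour. There was 1 untreated library and 1 library each after 2, 4 and 6 h with 10 µg/ml actinomycin D, which binds DNA and stops transcription. The series was made to estimate mRNA half-lives across the transcriptome. Everything below rests on 1 cell line and 4 libraries, with no replicate at any time and no vehicle named for the untreated cells. Whether each time was its own culture is not in the labels, so p-values measure only the scatter of these libraries around a line or curve. In bulk RNA, fewer cells and less RNA per cell cannot be told apart, and mRNA in the nucleus was not measured.

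Fc gamma receptors bind antibody-coated particles and let macrophages engulf them. Fcgr1 is the high-affinity receptor for IgG, Fcgr3 and Fcgr4 are further activating receptors, and Fcgr2b is the inhibitory one. The activating receptors depend on Fcer1g, the common gamma chain, for surface expression and signalling. Fcer1g and its relative Tyrobp (DAP12) carry an ITAM, a pair of tyrosines in a set spacing that is phosphorylated by Src-family kinases and then docks Syk. Beta-2 integrins are pairs of an alpha chain with the shared beta chain Itgb2: with Itgam they form Mac-1, the complement receptor of phagocytes, and with Itgal they form LFA-1, a receptor for ICAMs. In macrophages these integrins also signal through ITAM adaptors and Syk.

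The coding bases of these tyrosine motifs are given for the activating adaptors and the inhibitory receptor. They were read from GENCODE M21 transcripts of the mm10 build and are given 5′ to 3′, with each motif tyrosine codon in capitals. The ITAM stretch starts at codon 65 in Fcer1g and at codon 92 in Tyrobp and spans 45 bases in both. The inhibitory motif of Fcgr2b starts at codon 317. It was taken with a separate pattern built around a single tyrosine. The number of tyrosines shown therefore follows from the patterns and is not a finding.
Fcer1g ITAM: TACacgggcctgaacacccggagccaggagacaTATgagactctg
Tyrobp ITAM: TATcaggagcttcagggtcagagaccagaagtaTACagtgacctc
Fcgr2b inhibitory motif: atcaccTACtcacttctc
The pattern searched in the adaptors was the tyrosine pair in ITAM spacing, each tyrosine followed at a set distance by leucine or isoleucine. It is met by 264 of 9635 tested genes with a coding sequence (2.74%). Which of them are ITAM proteins was not checked, so the match alone does not mark one.

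The RNA came from cells with a macrophage marker profile and little sign of T cells, NK cells, mast cells or neutrophils. Of 10 macrophage markers 8 had a mean of at least 1 CPM, and their summed level ran from 4113 CPM (untreated) to 5481 CPM (6 h). All 6 mast cell and basophil markers, all 5 NK cell markers and all 5 epithelial markers had 0 counts in every library, and neutrophil markers summed to between 0.231 and 0.343 CPM, with S100a9, Camp, Ltf and Mmp8 at 0. Cd79b, a B cell receptor component, had a mean of 1.40 CPM. The T cell sum stayed between 0.0329 and 0.409 CPM with Cd3e, Cd3g and Cd8a at 0. Fibroblast and endothelial sums stayed between 0.0132 and 0.901 CPM. Total counts ranged from 12762100 at 6 h to 70289647 at 4 h, so the 6 h values carry the widest counting error.

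After transcription was stopped, mRNA of the high-affinity receptor Fcgr1 and the kinase Syk fell relative to the typical mRNA. Both ITAM adaptors and all 3 integrin subunits kept pace with the typical mRNA or stood above it. Levels are CPM scaled by TMM, a method that centres the bulk of genes on no change, so a rise means less loss than the typical mRNA, no loss, or gain. Slopes in log2 per h were tested with edgeR's quasi-likelihood test, Benjamini-Hochberg adjusted over all 10837 genes. Of the 9 tested members 2 fell (Fcgr1 and Syk) and 3 rose (Fcer1g, Itgal and Itgb2), against 17.2% of all tested genes that fell and 8.63% that rose. The 3 rises were lost with total counts, ribosomal protein scaling (to the counts of ribosomal protein genes) and the deposited divisors (the number by which the authors divided each library). Fcer1g and Itgb2 changed sign with those divisors. The falls of Fcgr1 and Syk missed the test with total counts (slopes −0.17 and −0.065). Syk also missed it without the 4 h library. The median slope was 0.060 in the 9 and 0.0014 in all genes.

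**Figure D1:**
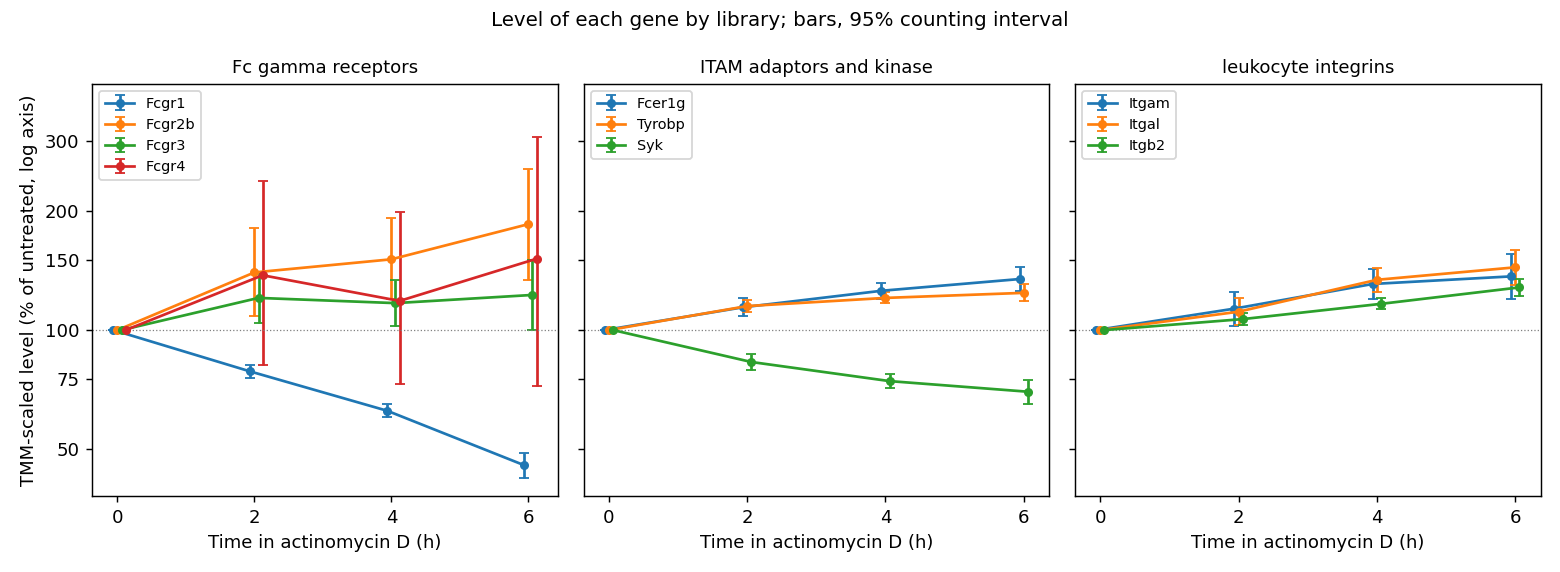
Level of each gene as percent of the untreated library (TMM scaling, log axis) against hours in actinomycin D, with 95% counting intervals as bars and 1 library per time. Fcgr1 ends at 45.5% and Syk at 69.8% of untreated, while the other 8 genes end between 123% and 185%; with the deposited divisors, Fcgr3, Tyrobp, Itgb2, Fcer1g and Itgam end between 85.7% and 95.5%.

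Fcgr1 fell at every step. It had 4544, 5078, 7084 and 831 counts at 0, 2, 4 and 6 h, or 149.5, 117, 93.4 and 68.0 CPM. The order of its levels followed time, and it stood at 78.6%, 62.5% and 45.5% of untreated (exact binomial 95% counting interval at 6 h 42.2 to 49.0%). From one library to the next it kept 78.6%, 79.5% and 72.8% of its level, with counting intervals of 75.5 to 81.8%, 76.7 to 82.5% and 67.7 to 78.3%. It had a fitted slope of −0.19 ± 0.014 log2 units per h (SE; edgeR, adjusted p = 0.0145), at percentile 14.0 of all tested slopes. Its adjusted p was 0.0393 without the 4 h library and 0.108 when libraries were scaled to total counts. On mm10 the Fcgr1 gene occupies positions 96282909 to 96293969 of chromosome 3 (minus strand), away from the other Fc receptor genes.

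Fcgr3, the activating receptor of lower affinity, had 292, 501, 852 and 144 counts, or 9.60, 11.6, 11.2 and 11.8 CPM. The 3 treated libraries lay close together and above the untreated one, the 6 h level being 123% of untreated (99.8 to 150%). Its slope of 0.042 ± 0.030 did not pass the test (edgeR adjusted p = 0.317), and it was −0.045 with the deposited divisors and −0.016 with ribosomal protein scaling. The inhibitory receptor Fcgr2b had 94, 187, 354 and 70 counts, or 3.09, 4.33, 4.67 and 5.73 CPM. It was lowest untreated and highest at 6 h, at 185% of untreated (134 to 255%), with a slope of 0.14 ± 0.039 that did not pass (adjusted p = 0.0613). Fcgr2b kept a slope above 0 with each scaling tried, the lowest being 0.052 with the deposited divisors (adjusted p = 0.292).

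Fcgr4 had 23, 45, 68 and 14 counts, or 0.756, 1.04, 0.897 and 1.15 CPM, and a mean of 0.960 CPM just under the filter. Its 6 h level was 152% of untreated with a counting interval of 72.1 to 307% that includes no change. At this depth no change was detected in either direction. Without a filter on low counts its slope was 0.074 (edgeR adjusted p = 0.551).

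Fcgr2b, Fcgr4, Fcgr3 and Fcer1g stand side by side on chromosome 1, within 170958617 to 171234365. Fcgr2b (170958617 to 170976547), Fcgr3 (171051174 to 171064935) and Fcer1g (171229572 to 171234365) are on the minus strand and Fcgr4 (171018920 to 171029761) is on the plus strand. Fcgr2b and Fcgr3 are near copies in part of their sequence: 9.58% of the 50-base stretches of Fcgr3 transcripts also occur in Fcgr2b. The labels do not state how reads shared by several genes were counted, and the split between Fcgr2b and Fcgr3 is uncertain to that extent. Fcgr1, Fcgr4, Fcer1g, Tyrobp, Syk and Itgal share 0 such stretches with the annotated transcripts of other genes.

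The make-up of the Fc gamma receptor mRNA pool changed with time. Fcgr1 made up 91.7% of the counts of the 4 receptor genes in the untreated library and 87.4%, 84.8% and 78.5% at 2, 4 and 6 h. Fcgr3 went from 5.90% to 13.6% and Fcgr2b from 1.90% to 6.61% between the untreated and 6 h libraries. Per kb of exon, Fcgr1 was 89.6% of the untreated pool and 75.1% of the 6 h pool, so it remained the most abundant of the 4 at each time.

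The adaptors stood above their untreated level with TMM. Fcer1g had 2310, 3750, 7244 and 1249 counts, or 76.0, 86.7, 95.5 and 102.2 CPM. The level was higher in each later library, reaching 135% of untreated (125.5 to 144%), and its slope was 0.071 ± 0.013 (edgeR, adjusted p = 0.0321). That slope was −0.016 with the deposited divisors (adjusted p = 0.332) and 0.013 with ribosomal protein scaling (adjusted p = 0.444). Its adjusted p was 0.0666 and 0.136 without the 2 h and the 4 h library.

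Tyrobp had 4847, 7927, 14585 and 2419 counts, or 159, 183, 192 and 198 CPM. Most of the difference lay between the untreated and the 2 h library, 115% (110.9 to 119%), and the last step from 4 to 6 h was 103% (98.6 to 107.5%). The slope of 0.050 ± 0.014 did not pass with TMM (edgeR adjusted p = 0.0623). It reversed to −0.036 with the deposited divisors and passed there as a fall (adjusted p = 0.0440), with a background of 46.5% of all genes falling under that scaling. The Tyrobp gene occupies positions 30413760 to 30417585 of chromosome 7 (plus strand).

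Syk, the kinase that docks on both adaptors, had 3553, 4196, 6584 and 997 counts, or 116.9, 97.0, 86.8 and 81.6 CPM. Each later library was lower, and the steps shrank: 83.0% from 0 to 2 h (79.4 to 86.9%), 89.5% from 2 to 4 h (86.1 to 93.0%) and 94.0% from 4 to 6 h (87.9 to 100.5%). The 6 h level was 69.8% of untreated (65.0 to 74.9%), with a slope of −0.086 ± 0.015 (edgeR adjusted p = 0.0297) at percentile 27.9 of all genes. Its adjusted p was 0.105 without the 4 h library and 0.619 with total counts. The Syk gene occupies positions 52583173 to 52648792 of chromosome 13 (plus strand).

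The quadratic term, which shows whether a course bends, passed for 0 of the 9 members with TMM (edgeR), against 31.1% of all tested genes, 19% upward and 12.1% downward. In simulated data, where every gene had the same spread (dispersion 0.02), this test found 96 of 200 planted early changes of −2 log2 units. A bend can thus be missed, though the share found need not be the same in these libraries. The result does not show that the courses are straight. Syk (upward, unadjusted p = 0.0387, adjusted p = 0.0965) and Tyrobp (downward, unadjusted p = 0.0402, adjusted p = 0.0995) were the 2 with an unadjusted p under 0.05. DESeq2 gave 0 bends among the members and 10.2% among all genes. Scaling to ribosomal protein counts gave 2 upward bends, Syk and Itgb2, as did the deposited divisors, where 33.6% and 31.3% of all genes bent. Total counts gave 6, all downward (Fcgr1, Fcgr3, Fcer1g, Tyrobp, Itgam and Itgal), where 51.9% of all genes bent.

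The 3 integrin subunits were each higher in every later library with TMM. Itgb2, the shared beta chain, had 5195, 7872, 15100 and 2676 counts, or 170.9, 182, 199 and 219 CPM. Its 6 h level was 128% of untreated (122 to 134%), and its slope was 0.060 ± 0.011 (edgeR, adjusted p = 0.0324). With the deposited divisors the slope was −0.027 (adjusted p = 0.248) and with ribosomal protein scaling 0.0023 (adjusted p = 0.928). The test was also missed without the 2 h, the 4 h or the 6 h library (adjusted p = 0.0877, 0.14 and 0.0674). The Itgb2 gene occupies positions 77530252 to 77565708 of chromosome 10 (plus strand).

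Itgal, the alpha chain of LFA-1, had 1047, 1657, 3500 and 606 counts, or 34.4, 38.3, 46.2 and 49.6 CPM, higher in each later library. It reached 144% of untreated (130.1 to 159%), with a slope of 0.093 ± 0.017 (edgeR adjusted p = 0.0311). The slope was 0.0054 with the deposited divisors (adjusted p = 0.814), and the adjusted p was 0.0658 and 0.126 without the 2 h and the 4 h library. Itgam, the alpha chain of Mac-1, had 659, 1062, 2150 and 362 counts, or 21.7, 24.6, 28.4 and 29.6 CPM. It too was higher in each later library, at 137% of untreated at 6 h (119.9 to 156%), and its slope of 0.078 ± 0.020 did not pass (adjusted p = 0.0514). With those divisors the slope of Itgam was −0.0089.

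Both alpha chain genes lie on the plus strand of chromosome 7, Itgal from 127296260 to 127335138 and Itgam from 128062640 to 128118491. A gene model on the same strand, Gm49368, overlaps Itgam and shares 66.3% of its 50-base stretches. No count of Gm49368 was used here, and Itgam counts are uncertain to the extent that reads were assigned to it.

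Ratios between genes of the same library do not depend on how libraries are scaled, and they too set Fcgr1 and Syk apart from the other members. The ratio of Fcgr1 to Fcer1g counts, receptor to its signalling chain, was 1.97 untreated and 1.35, 0.978 and 0.665 at 2, 4 and 6 h, so that 33.8% of the untreated ratio remained (exact conditional 95% counting interval 30.5 to 37.5%). The ratio of Fcgr3 to the same chain was 0.126, 0.134, 0.118 and 0.115, or 91.2% of untreated at 6 h with an interval of 73.3 to 113% that includes no change. Fcgr1 against Fcgr3 stood at 37.1% of its untreated ratio (29.9 to 46.2%). These intervals cover counting error only.

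Syk was lower against both adaptors, at 51.9% of the untreated ratio against Fcer1g (47.0 to 57.3%) and at 56.2% against Tyrobp (51.6 to 61.3%). Fcgr1 and Syk differed from each other later: their ratio was 94.6% of untreated at 2 h (89.1 to 100.5%), 84.1% at 4 h (79.6 to 88.9%) and 65.2% at 6 h (58.8 to 72.3%). Tyrobp against Fcer1g was at 100.7% at 2 h (94.5 to 107.3%) and 92.3% at 6 h (84.8 to 100.5%), each interval including no change.

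Within the integrins, Itgam against Itgb2 was at 107% of its untreated ratio at 6 h (92.8 to 122.5%) and Itgal against Itgb2 at 112% (100.4 to 126%). At 4 h these were 112% (102.2 to 123%) and 115% (106.6 to 124%), both intervals above no change. At 6 h Itgam against Itgal was at 94.9% (80.4 to 112%). Against Itgb2, Fcer1g was at 107% of the untreated ratio at 2 h (100.6 to 114%), 108% at 4 h (101.9 to 114%) and 105% at 6 h (96.5 to 114%). Tyrobp against Itgb2 was at 108% (102.6 to 113.5%), 103.5% (98.9 to 108%) and 96.9% (90.5 to 104%). Intervals thus lay above no change for Fcer1g at 2 and 4 h and for Tyrobp at 2 h. Among all 14 pairs computed, the 5 with Fcgr1 or Syk as the numerator ended between 33.8% and 65.2% of untreated and the other 9 between 91.2% and 151%.

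**Figure D2:**
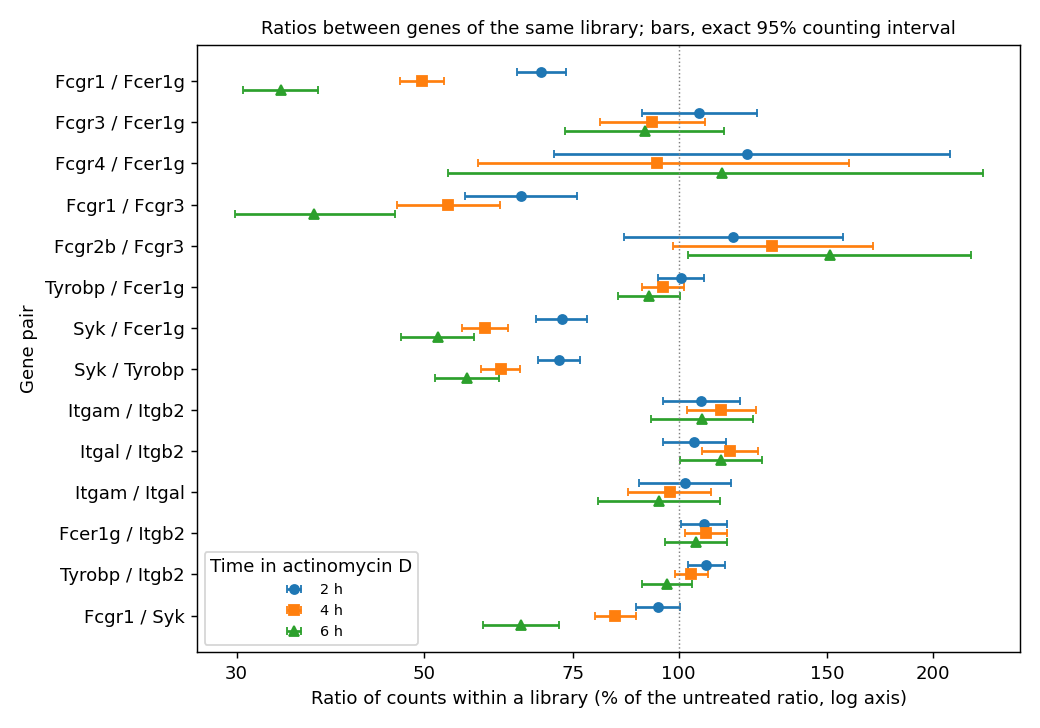
Ratio of counts between pairs of genes within each library, as percent of the ratio in the untreated library (log axis), at 2, 4 and 6 h; bars are exact 95% counting intervals. Pairs with Fcgr1 or Syk as the numerator move left with time, to 33.8% for Fcgr1 against Fcer1g, while pairs among adaptors and integrins end between 92.3% and 112%.

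Per kb of exon, the untreated library held the adaptors above the receptors. Tyrobp had 239 CPM per kb (counting interval 232 to 246) and Fcer1g 86.9 (83.4 to 90.5). Fcgr1 (57.7, 56.1 to 59.4) and Itgb2 (56.0, 54.5 to 57.5) followed with overlapping intervals, and then Syk at 12.5 (12.1 to 12.9). Fcgr3 at 5.53 (4.92 to 6.20) overlapped Itgal at 5.24 (4.93 to 5.57), and Itgam stood at 4.31 (3.99 to 4.66). Fcgr4 at 0.602 (0.382 to 0.904) overlapped Fcgr2b at 0.534 (0.431 to 0.653). Dividing by the length of the principal transcript in place of all annotated exons put Fcgr2b at 0.872 and Syk at 21.8 CPM per kb, and exchanged the order of Fcgr2b and Fcgr4 only. The beta chain mRNA stood above either alpha chain, with 0.0771 Itgam and 0.0936 Itgal per Itgb2 on the per-kb scale, against 0.0822 and 0.105 at 6 h.

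The slope of every member depended on the scaling of the libraries. The sign was the same with each of 5 scalings for Fcgr1, Syk, Fcgr2b and Itgal, though Itgal ranged from 0.0054 to 0.11 and Syk from −0.17 to −0.065. Over 6 h the median gene moved by 0.13 log2 with total counts, −0.35 with ribosomal protein scaling and −0.52 with the deposited divisors, relative to TMM. Of all tested genes 1859 fell and 935 rose with TMM, 1350 and 207 with total counts, 2598 and 134 with ribosomal protein scaling and 5039 and 78 with the deposited divisors. Among the 9 members edgeR called 0 falls and 0 rises with total counts (12.5% and 1.91% of all genes). With ribosomal protein scaling it called 2 falls and 0 rises (24% and 1.24%), and with the deposited divisors 3 falls, Fcgr1, Syk and Tyrobp, and 0 rises (46.5% and 0.72%). Without the 4 h library 1 member fell, Fcgr1, and 0 rose (3.24% and 0.231%). Relative to the median slope of 82 ribosomal protein genes, Fcgr1 had an apparent half-life of 4.12 h and Syk of 7.05 h, and Fcgr2b, Fcer1g, Itgam, Itgal and Itgb2 lay above that median.

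**Figure D3:**
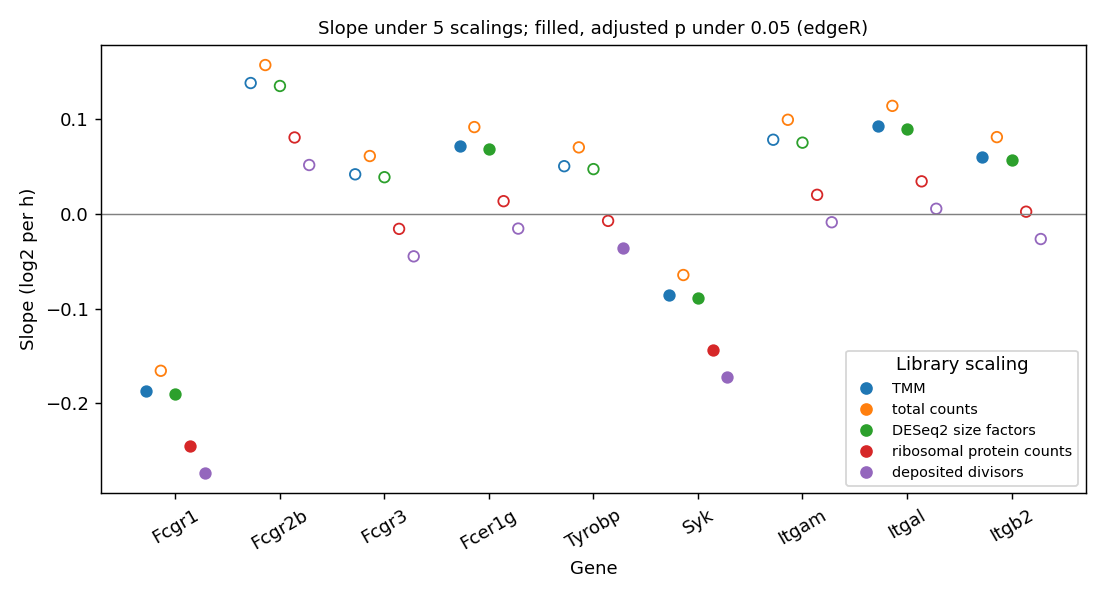
Slope of each of the 9 tested genes in log2 per h under 5 ways of scaling the libraries; filled points have an edgeR adjusted p under 0.05. Fcgr1 and Syk lie below 0 under each scaling, and Fcgr3, Fcer1g, Tyrobp, Itgam and Itgb2 lie above 0 with TMM and below 0 with the deposited divisors.

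The authors' deposited table gives half-lives of 3.43 h for Fcgr1 and 4.28 h for Syk. The same authors' deposited table lists 14.7 h for Itgb2, 20.4 h for Fcgr3, 21.2 h for Tyrobp, 27.6 h for Fcer1g, 38.1 h for Fcgr4, 38.7 h for Itgam and 46.7 h for Itgal. For Fcgr2b the authors' deposited table holds −21.8 h, the negative sign standing for levels above the untreated one. Its squared correlations ranged from 0.173 for Fcgr4 to 0.998 for Fcgr1, with 0.497 for Itgal and 0.740 for Fcgr2b. Recomputation showed what these half-lives used: a line of log level through the untreated value over 0, 2 and 4 h gave the authors' value within 0.1% for 14071 of 14071 genes with values above 0 in all libraries, and the same line over 0, 2, 4 and 6 h for 24 of them. The 6 h library thus does not enter them.

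Adding the 6 h value to that line put Fcgr1 at 3.55 h and Syk at 5.14 h, still the shortest of the members. Fcgr3 went from 20.4 to 24.2 h and Tyrobp from 21.2 to 25.8 h, and Fcgr2b from −21.8 to −17.8 h. Itgb2 went from 14.7 to 24.2 h, Fcer1g from 27.6 to 44.4 h, Itgam from 38.7 to 61.0 h and Itgal from 46.7 to 148 h. Fcgr4, with 14 counts in the 6 h library, went from 38.1 to 1463 h, so no half-life could be read for it.

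AU-rich elements in the 3′ UTR, built around the pentamer ATTTA, are classical signals of rapid mRNA decay, and the members were searched for them on the transcript strand only, in the principal transcript. Of 9562 tested genes with a 3′ UTR, 68.0% hold at least 1 ATTTA and 28.6% the longer TATTTAT, which contains ATTTA. Fcgr1 holds 0 ATTTA in 1367 bases of 3′ UTR. Syk holds 3 in 2997 bases and 0 TATTTAT. Itgam holds 5 in 1113 bases, and Itgb2 holds 2 in 446 bases, 1 of them within a TATTTAT. Itgal holds 1 in 1528 bases and Fcgr2b 2 in 2397 bases. Fcgr3, Fcgr4, Fcer1g and Tyrobp hold 0, in UTRs of 493, 446, 293 and 168 bases against a median of 1028. The sites of Syk and the member with the most sites, Itgam, are shown beside the Itgb2 site with the longer motif. Capitals mark the pentamer of the named site only. The Itgb2 stretch and the last Itgam stretches overlap a neighbouring site, whose pentamer stays in lower case.
Syk site 1: taggaagtATTTAgaagctat
Syk site 2: acctgtagATTTAgtcaggag
Syk site 3: cctagaggATTTAgactatga
Itgam site 1: atctagtcATTTAttatttta
Itgam site 2: taacattaATTTAaataattg
Itgam site 3: tcaaataaATTTAtataagtt
Itgam site 4: tgtaatgtATTTAacatttaa
Itgam site 5: tatttaacATTTAatgtagtc
Itgb2 site with TATTTAT: cccaacttATTTAtatttaaa
A match describes these letters in the annotated transcript and says nothing of a protein bound there. Whether any site affects the course of its mRNA was not tested.

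By root-mean-square distance of log2 changes at 2, 4 and 6 h among genes of at least 10 CPM, the courses nearest to Fcer1g were those of Ipo8 (0.0070), Mtmr2 (0.0092) and Plscr3 (0.011), and those nearest to Itgb2 were Cdadc1 (0.0067), Slc48a1 (0.0076) and Psmf1 (0.0099). Among the members, Itgam was nearest to Fcer1g (0.036) and Tyrobp to Itgb2 (0.075), while Fcgr1 was at 1.12 and 1.04. The likeness spans 3 changes that share the untreated library.

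Among other receptors that use these adaptors, Trem2, Clec5a, Clec4e and Clec4d rose with TMM. Of 13 tested ITAM-coupled receptors and adaptors beyond the members 0 fell and 4 rose with TMM (edgeR), 30.8% against 8.63% of all genes, with a median slope of 0.064. Trem2, a lipid-sensing receptor that signals through Tyrobp, was the most abundant at a mean of 179.5 CPM and rose to 126% of untreated (slope 0.054, adjusted p = 0.0420). Clec5a, which also pairs with Tyrobp, rose to 167% (0.12, adjusted p = 0.0151), and Clec4e and Clec4d, C-type lectins that pair with Fcer1g, rose to 131% and 132.5%. With the deposited divisors 4 of the 13 fell (30.8%, against 46.5% of all genes) and 0 rose, and Trem2, Clec4e and Clec4d had slopes of −0.033, −0.021 and −0.020. The lowest 6 h levels relative to untreated in this list, named after their values were seen, were those of Cd300lb and Trem1, receptors that signal through ITAM adaptors. Cd300lb (48.7 CPM) stood at 28.5%, 21.9% and 23.5% of untreated at 2, 4 and 6 h (20.9 to 26.4% at 6 h) and did not pass with TMM (adjusted p = 0.0599), but fell with the deposited divisors (adjusted p = 0.0451). Trem1, at 1.09 CPM, stood at 28.4% at 6 h (11.8 to 59.2%). It too did not pass with TMM (edgeR adjusted p = 0.0635) but fell with the deposited divisors (adjusted p = 0.0417). Of 13 other Fc receptor genes 3 were tested and 0 passed in either direction. Fcrl1, an Fc receptor-like gene best known from B cells, was at 37.2 CPM and 106% of untreated at 6 h (adjusted p = 0.415), and Fcgrt, the neonatal Fc receptor that recycles IgG, at 4.79 CPM and 100.3% (adjusted p = 0.932). The third, Trim21, a cytosolic antibody receptor named after its values were seen, was at 1.96 CPM and at 47.3%, 26.6% and 37.4% of untreated at 2, 4 and 6 h (21.1 to 62.7% at 6 h, slope −0.28, adjusted p = 0.0838).

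Downstream of the ITAM, Tec, Arf6 and Pik3r1 fell while Cybb, Cdc42 and Lat2 rose with TMM. Of 37 tested kinases, adaptors and effectors 10 fell and 4 rose (27.0% and 10.8%, edgeR, against 17.2% and 8.63% of all genes), with a median slope of −0.0042. The Tec-family kinase Tec fell to 10.3% of untreated at 6 h (counting interval 7.06 to 14.4%, slope −0.57, adjusted p = 0.0187), the GTPase Arf6, which acts in phagocytosis, to 23.3% (−0.36, adjusted p = 0.0258), and the PI3-kinase regulatory subunit Pik3r1 to 49.6% (−0.17, adjusted p = 0.0230). The NADPH oxidase subunit Cybb, the most abundant of the list at 503 CPM, rose to 187% (0.15, adjusted p = 0.0162), the GTPase Cdc42 to 166% (0.12, adjusted p = 0.0334) and the adaptor Lat2 to 149.9% (0.096, adjusted p = 0.0198). Cybb alone of these 3 also rose with the deposited divisors (0.059, adjusted p = 0.0349), under which 25 of the list fell (67.6%, against 46.5% of all genes) and 1 rose.

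Of 28 tested genes listed as brakes on ITAM signalling 8 fell and 1 rose (28.6% and 3.57%, edgeR, against 17.2% and 8.63% of all genes), with a median slope of −0.017. Pag1, which brings the inhibitory kinase Csk to the membrane, stood at 23.9% of untreated at 6 h (−0.34, edgeR, adjusted p = 0.0311), the Src-like adaptor Sla at 33.4% (−0.27, adjusted p = 0.0145) and the phosphatase Ptpn22 at 57.1% (−0.14, adjusted p = 0.0190). Sirpa, the abundant receptor for CD47, fell to 77.5% (−0.065, adjusted p = 0.0455). The ubiquitin ligase Cbl, the most abundant at 392 CPM, stood at 106% (adjusted p = 0.443). The 1 gene that rose was Lilr4b, at 8.91 CPM, to 243% (0.20, adjusted p = 0.0449). Whether Lilr4b acts as a brake was not checked, so its rise is not read as that of an inhibitor. Under the deposited divisors the counts were 14 (50%) down and 0 up, against 46.5% and 0.72% of all genes.

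Of 10 other integrin subunits tested 0 fell and 3 rose with TMM (median slope 0.072, against 17.2% and 8.63% of all genes), and under the deposited divisors the counts were 0 and 1 (Itgax), against 46.5% and 0.72%. Itga4, by far the most abundant at 2833 CPM, stood at 130.4% (edgeR adjusted p = 0.113). Itgb1, the beta chain of many matrix receptors, rose to 144% (0.086, adjusted p = 0.0326) and Itgav to 146% (0.092, adjusted p = 0.0187), with slopes of −0.0011 and 0.0047 under the deposited divisors. Itga5, the fibronectin receptor's alpha chain, was chosen for mention after its values were seen: at 63.4 CPM it stood at 35.6%, 26.8% and 32.4% of untreated at 2, 4 and 6 h (29.5 to 35.5% at 6 h) and did not pass (slope −0.27, adjusted p = 0.0772). Itgax, a further alpha chain of Itgb2, was also chosen for mention after its values were seen: it had 57, 107, 293 and 108 counts, or 1.88, 2.48, 3.86 and 8.84 CPM. It was higher in each later library, at 472% of untreated at 6 h (339 to 662%), with a slope of 0.37 ± 0.054 (edgeR adjusted p = 0.0230) that stayed above 0 with the deposited divisors (0.28, adjusted p = 0.0353). Itgad, the remaining alpha chain of Itgb2, had 2, 0, 1 and 0 counts.

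Of 29 tested genes that regulate integrin activation, in either direction, or tie integrins to actin 4 fell and 9 rose (13.8% and 31.0%, median slope 0.043, against 17.2% and 8.63% of all genes). Under the deposited divisors the counts were 14 (48.3%) and 0, against 46.5% and 0.72%. Talin, Tln1, which binds the beta tail, was at 1356 CPM and 129% of untreated (slope 0.060, edgeR adjusted p = 0.0498; −0.027 with the deposited divisors), and the actin cross-linker Flna at 1511 CPM and 121% (adjusted p = 0.115). Parvb, Itgb1bp1 and Lims1 rose to 159.9%, 155.5% and 152%, and these rises do not show whether integrins would be more or less active. The adaptors Crkl and Crk fell to 40.0% and 41.1% (slopes −0.22 and −0.21, adjusted p = 0.0450 and 0.0351) and the kinase Ptk2b to 67.4% (−0.095, adjusted p = 0.0395). Of 6 tested genes listed with ligands of these integrins 1 fell and 1 rose (16.7% each, against 17.2% and 8.63% of all genes). Icam2 fell to 55.6% (−0.13, edgeR adjusted p = 0.0480). The properdin gene Cfp, whose place among the ligands was not checked, rose to 138% (0.077, edgeR adjusted p = 0.0314). With the deposited divisors the slope of Cfp was −0.0095. Icam1, an inducible ligand of both LFA-1 and Mac-1, stood at 46.8%, 40.2% and 39.8% at 2, 4 and 6 h. It did not pass with TMM (edgeR adjusted p = 0.0554) but fell with the deposited divisors (slope −0.30, adjusted p = 0.0370).

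Over all 7 lists 126 of 184 genes were tested, and 23 fell and 22 rose with TMM (18.3% and 17.5%, against 17.2% and 8.63% of all genes). The counts became 59 (46.8%) and 2 under the deposited divisors, against 46.5% and 0.72% of all genes. They became 4 and 0 when the 4 h library was left out, against 3.24% and 0.231% of all genes. Both falling shares lay near those of all genes.

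**Figure D4:**
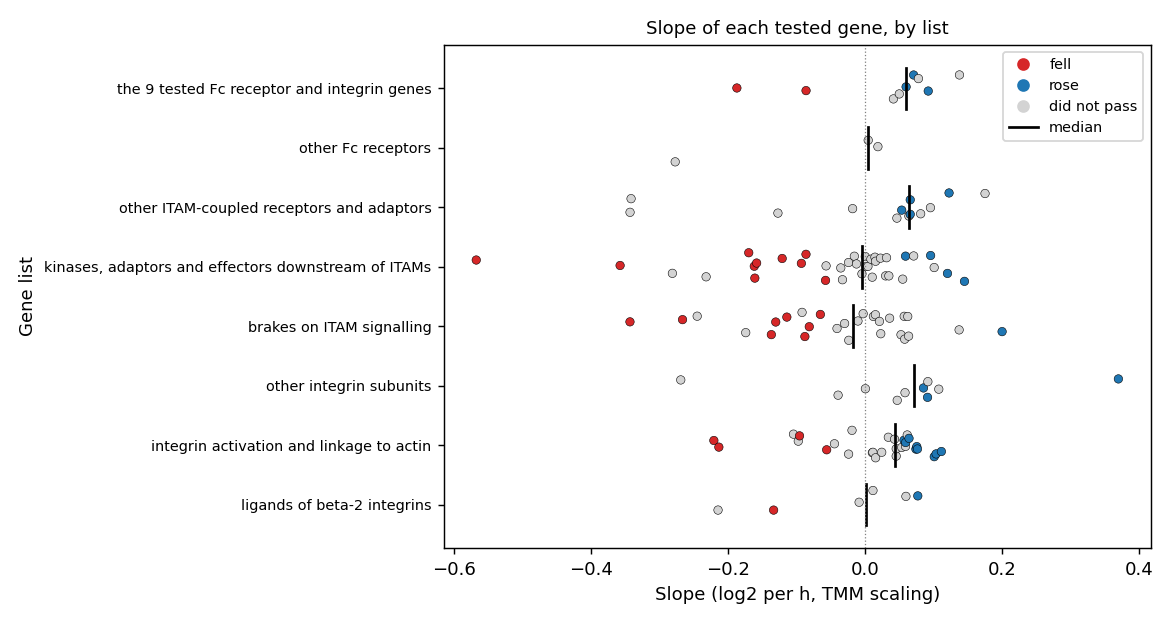
Slope in log2 per h (TMM scaling) of each tested gene, 1 point per gene, for the 9 members and 7 lists of related genes; red fell and blue rose by edgeR at an adjusted p under 0.05, and black lines mark medians. Medians run from −0.017 for the brakes to 0.072 for the other integrin subunits; the medians of the 9 members and of 5 lists are above 0 here, and all 8 medians are below 0 with the deposited divisors.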

How the data were processed

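Cytoplasmic RNA, as the labels name it, was depleted of ribosomal RNA and made into directional libraries, per the labels' protocols. The submitters' processing notes name STAR 2.5.3a, featureCounts, Subread 1.6.3 and mm10. Not given in the sources used here are the gene models used for counting, whether strand was used, and how multi-mapping reads were handled. The deposited table holds raw counts, used as deposited, and a normalized signal that the authors made by dividing each library's counts by 1 number (1300, 2250, 4476 and 748 at 0, 2, 4 and 6 h, recomputed here). Its half-lives are taken as the authors' score, and the deposited squared correlation is a fraction. Columns matched to no sample numbered 0.

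The fits of slopes and bends used edgeR 4.0.16 under R 4.3.3 (TMM, mean CPM of at least 1, quasi-likelihood test, 2 and 1 residual degrees of freedom, adjusted p under 0.05). Alternatives were other scalings, filters, DESeq2 1.42.0, edgeR's older quasi-likelihood estimate (added after seeing the data) and leaving out each library. The fits were tested on simulated data. Named genes were all members and, per list, the 2 most abundant and up to 3 steepest in each direction past the test at 5 CPM or more. Members and lists were chosen with earlier results of these data known. Positions, lengths and sequences came from GENCODE M21; coordinates are 1-based. Total counts were 35669434, 38260540, 70289647 and 12762100. The result of a further marker list is not reported here.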

Additional observations from a re-analysis of the deposited data

How the results depend on the processing

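With 12 alternatives each, Fcgr1 kept its fall in 11 and Syk in 10; both missed the test with total counts (−0.17 and −0.065), and Syk without the 4 h library. Fcer1g, Itgal and Itgb2 kept their rise in 6, 7 and 5. With the deposited divisors slopes reversed for Fcgr3 (−0.045), Fcer1g (−0.016), Tyrobp (−0.036), Itgam (−0.0089) and Itgb2 (−0.027), and with ribosomal protein scaling for Fcgr3 (−0.016) and Tyrobp (−0.0074). Itgam passed as a rise at a mean CPM of at least 5 (adjusted p = 0.0476) and Tyrobp with DESeq2's Wald test (0.0147).

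With total counts 0 members fell, 0 rose and 6 bent; 14 pathway genes fell and 2 rose, and 207 of all genes rose. With ribosomal protein scaling 0 members rose, 2 bent, 4 pathway genes rose and 134 of all genes rose. With the deposited divisors 0 members rose, 2 bent, 59 pathway genes fell and 2 rose, and 5039 of all genes fell and 78 rose. Without a filter on low counts 1 member rose and 561 of all genes rose. DESeq2's Wald test gave 1529 rises among all genes. Leaving out 1 library at a time gave 1 to 2 falling and 0 to 3 rising members, 4 to 25 falling and 0 to 18 rising pathway genes, and 351 to 2242 falling and 25 to 1141 rising genes in all; the lowest values came without the 4 h library, and without the 2 h library 0 members rose as well. The cause was not tested. The bend was not tested with a library left out, since no residual degrees of freedom remain. No paired analysis was possible because each time has 1 library. Depth limits Fcgr4 and Fcgr2b most, with 14 and 70 counts at 6 h.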
